A study of Mus musculus with 7 samples.

Results

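The genes examined were 38 Hox genes of the 4 mouse clusters together with the linked genes Evx1 and Evx2, 40 of 21631 protein-coding genes (Y-linked genes left out). They were taken by name, placed at their RefSeq positions (GRCm38.p6, the same build as mm10), and set against the called peaks of H3K27me3, trimethylated lysine 27 of histone H3. A gene was called marked when at least 1 bp of a peak fell on the gene body or within 10 kb of it. The cells were epidermal progenitors sorted from back skin of newborn mice (postnatal day 0) as positive for EpCAM and Sca1 and high for α6-integrin. The genotypes were Control and Ring1a/b 2KO, each with 2 immunoprecipitation libraries, and 1 list of peaks was deposited for each genotype. The labels give genotype names only, with no allele or Cre driver. H3K27me1 stands in the 2KO sample titles, but the antibody label and the name of the deposited list give H3K27me3, which was followed. A single list for each genotype leaves no replicate error, so the genotypes are compared without a test. Sequencing depth is unknown, and a position outside all peaks is not shown to lack the mark. The lists held 3631 control and 2340 2KO peaks, and 47.5% of the bases in control peaks were also in 2KO peaks. The labelled cell type could not be checked, since no expression was measured.

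Hox genes encode homeodomain transcription factors that set position along the body axis. Within a cluster they lie in the order of their paralog numbers, and genes with low numbers act toward the head and genes with high numbers toward the tail and the ends of the limbs. The clusters are classical targets of the Polycomb repressive complexes. Complex 2 writes H3K27me3. Complex 1, whose ubiquitin ligases are encoded by Ring1 and Rnf2, modifies histone H2A, and some of its forms bind H3K27me3. Evx1 and Evx2 are homeobox genes beside the group 13 genes of HoxA and HoxD. Paralog numbers 1 to 3 are called anterior here, 4 to 8 central and 9 to 13 posterior.

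In control cells the mark lay over the posterior genes of all 4 clusters and over the whole of HoxD, and the 2KO list left most of these gene bodies without a peak. With the 10 kb windows, 33 of 40 genes were marked in the control list and 17 in the 2KO list, all 17 of them marked in control too. Genome-wide the rule marked 14.9% of genes in control and 11.2% in 2KO cells. The 17 were 51.5% of the 33 control-marked genes, beside 59.8% of all control-marked genes, so a count with windows of this size was near that of other genes. Gene bodies differed more. Peaks fell on 26 of the 40 bodies in control and on 8 in 2KO cells, against 11.2% and 7.17% of all genes. The 8 were 30.8% of the 26, whereas 55.8% of all genes with a control peak in the body kept one. Of 23 members lying wholly under control peaks, 15 had no base under a 2KO peak (65.2%, compared with 24.4% of the 303 such genes genome-wide, members included). Genes of a cluster share peaks and are not independent, so these shares are descriptions. The shares also depend on the length of the gene body, which was not matched between members and all genes.

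**Figure D1:**
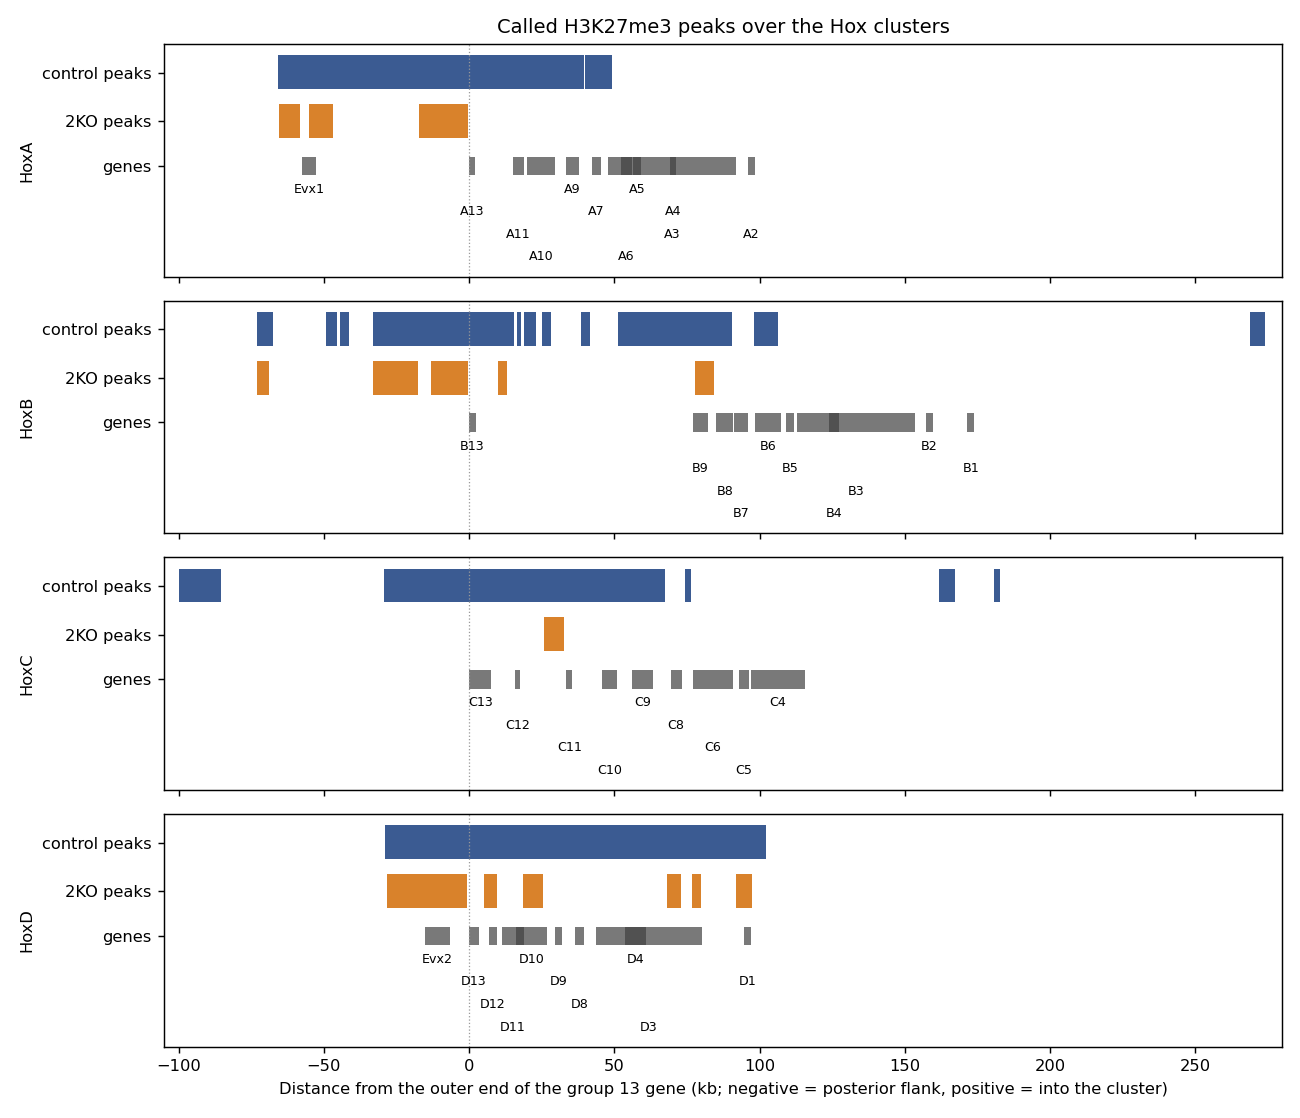
Called peaks of the control (blue) and 2KO (orange) lists over each Hox cluster and its flanks. The x axis is the distance in kb from the outer end of the group 13 gene, with the cluster to the right, and grey boxes are the member genes. Control peaks begin in the posterior flank and reach to Hoxa7 and the nearby start of Hoxa3, to Hoxb6 and to Hoxc9, or over all of HoxD. Separate control peaks lie between Hoxc8 and Hoxc6 and in the anterior flanks of HoxB and HoxC. Most 2KO peaks lie outside the cluster or in short pieces.

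Ordered by paralog number, control marking was most extensive among posterior genes. All 16 posterior genes lay wholly under control peaks. Among 15 central genes, 5 had a control peak in the body and 3 were wholly covered (Hoxa7, Hoxd8 and Hoxd4). Of 7 anterior genes, 3 had a peak in the body, and only Hoxd1 and Hoxd3 were wholly covered. The median share of the body under control peaks was 100% for posterior genes and 0% for both central and anterior genes. In 2KO cells, 4 of 16 posterior bodies, 0 of 15 central bodies and 2 of 7 anterior bodies held called bases. The 4 posterior genes were Hoxb9, Hoxd10, Hoxd11 and Hoxd12, and the 2 anterior ones Hoxd1 and Hoxd3. The median share under 2KO peaks was 0% in all 3 classes. Within windows of 10 kb, the medians for posterior genes were 100% in control and 26.9% in 2KO cells. Those for central genes were 32.1% and 0%, and those for anterior genes 6.02% and 0%. The posterior medians in 2KO cells differed by cluster, at 0% in HoxA and HoxC, 40.2% in HoxB and 34.7% in HoxD. Counted by window, 16 posterior, 11 central and 4 anterior genes were marked in control, and 10, 3 and 2 in 2KO cells. Outside HoxD the marked anterior genes were Hoxa3 and Hoxb3, with long bodies of 44009 and 40830 bp that reach among central genes. Their windows met control peaks at Hoxa7 and Hoxb6, and the anterior median of 6.02% is the value of Hoxb3. The anterior count outside HoxD therefore does not show marking at the anterior ends. The extra posterior genes in the 2KO count were marked by peaks beside the gene.

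**Figure D2:**
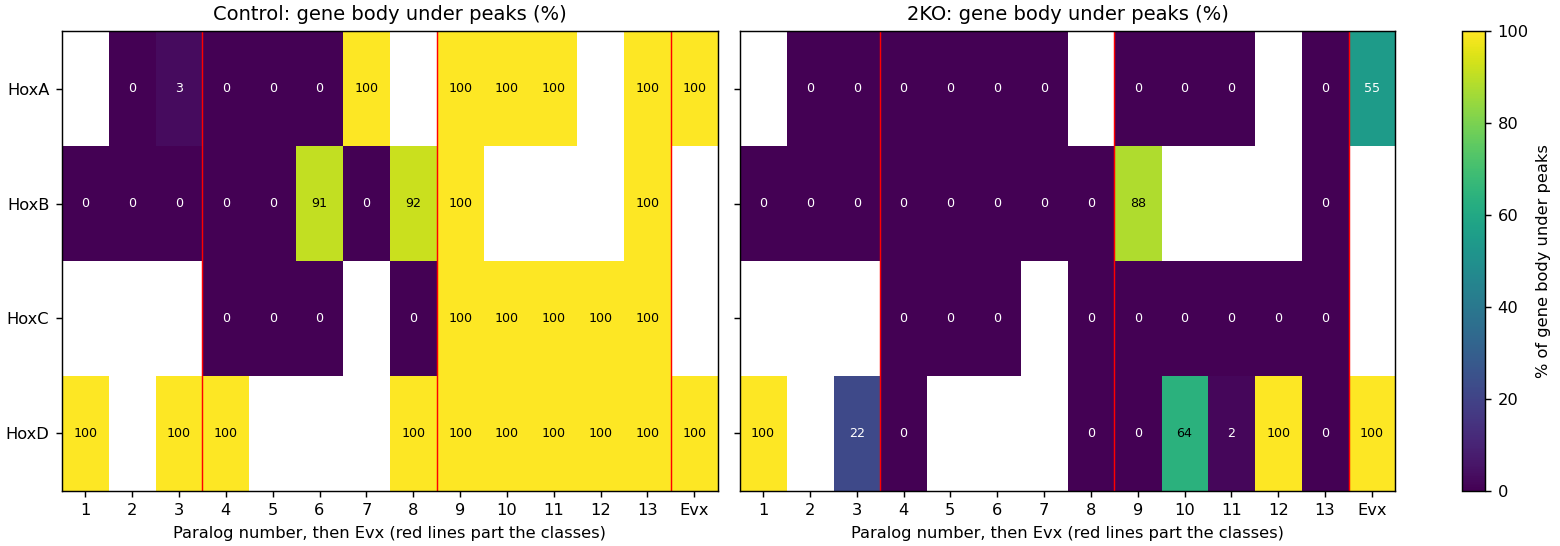
Share of each gene body under called peaks, in percent, by cluster and paralog number, for the control list (left) and the 2KO list (right). White cells hold no gene of the set, and red lines part anterior, central and posterior genes and Evx. Posterior bodies are at 100 in control, and in 2KO cells only Hoxb9, Hoxd10, Hoxd11 and Hoxd12 among them are above 0.

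The outermost genes of the clusters differed by side. Group 13 genes, which pattern the digits, the genital tubercle and the tail end of the axis, form the posterior edge. Hoxa13, Hoxb13, Hoxc13 and Hoxd13 were each covered to 100% in control and to 0% in 2KO cells. At the anterior edge of the set, Hoxa2, Hoxb1 and Hoxc4 were at 0% in both lists. Hoxd1, the remaining edge gene, was at 100% in both. Hoxa2 and Hoxb1 pattern the hindbrain and the neural crest that leaves it.

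At 3 of the group 13 genes a 2KO peak in the flank stopped just short of the gene. Hoxa13 (chromosome 6, 52258853 to 52260880, minus strand) had a 2KO peak of 16.8 kb (52261303 to 52278151) that ended 423 bp upstream of its start site. For Hoxd13 (chromosome 2, 74668225 to 74671603, plus strand) the 2KO peak of 27.7 kb (74639858 to 74667545) ended 680 bp upstream of the start site. At Hoxb13 (chromosome 11, 96194316 to 96196610) a 12.5 kb peak (96181230 to 96193765) ended 551 bp from the outer end of the gene. In the control list 1 peak ran across each of these ends without a break. Hoxc13 (chromosome 15, 102921131 to 102928814), which acts in hair and nail formation, was the exception, with no 2KO peak within 10 kb. Further into the clusters, a 6.81 kb peak (102946853 to 102953665) ended 861 bp from Hoxc11, and a 6.78 kb peak (96271965 to 96278747) over Hoxb9 ended 654 bp from the outer end of Hoxb8. Peaks ending close upstream also occurred at other genes. Among the 13 members whose start site lay under a control and not under a 2KO peak, 2 had a 2KO peak ending upstream within 1 kb (15.4%), and of all such genes 9.09% did. Within 2 kb it was 3 of 13 (23.1%), beside 11.3% of all such genes. This measure was chosen after the peaks had been seen.

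**Figure D3:**
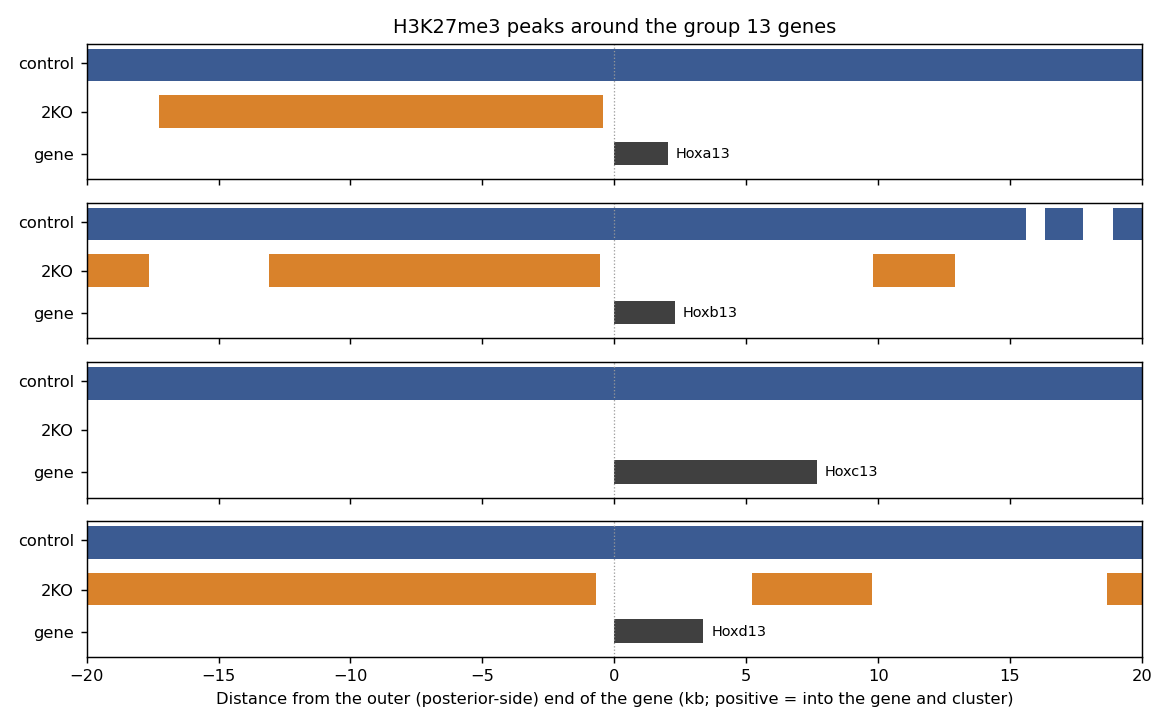
Called peaks of the control (blue) and 2KO (orange) lists around the 4 group 13 genes (grey). The x axis is the distance in kb from the outer end of the gene, positive into the gene. The 2KO peaks of Hoxa13, Hoxb13 and Hoxd13 end 423, 551 and 680 bp short of the gene, and Hoxc13 has none.

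In sum, the flanks on the posterior side kept more of their called length than the clusters, but at HoxC the flank kept less. Summed over the 4 clusters, 290.1 kb lay under control peaks inside them and 41.2 kb under 2KO peaks (14.2%). By cluster, 2KO peaks covered 0% of the control bases inside HoxA, 13.2% in HoxB, 9.78% in HoxC and 25.3% in HoxD. In the 100 kb beyond the group 13 genes the sums were 184.2 and 92.1 kb (50.0%), near the value of 47.5% over all control peaks. The flanks differed among clusters. The flank of HoxD with Evx2 had 29.1 kb called in control against 27.7 kb in 2KO cells, and 2KO peaks covered 95.1% of the control bases. The values beside Hoxb13 were 45.4 and 32.0 kb (70.4%), and beside Hoxa13, in the stretch with Evx1, 65.9 and 32.5 kb (49.3%). The posterior flank of HoxC had 43.9 kb under control peaks and none under 2KO peaks. It held a separate control peak of 14.4 kb (chromosome 15, 102821285 to 102835717), the widest of the 13 control peaks of clusters and flanks that met no 2KO peak. The anterior flanks, of the same length, summed to 17.7 kb under control peaks and to 0.305 kb under 2KO peaks.

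Inside the clusters, each divided into segments of equal length, the clusters differed. In HoxA the called length of the posterior segment went from 32.8 kb in control to 0 in 2KO cells, and that of the middle segment from 15.8 kb to 0. In HoxC it went from 38.6 to 6.81 kb and from 31.1 kb to 0. The HoxB posterior segment, which is mostly the long interval between Hoxb13 and Hoxb9, went from 33.9 to 3.08 kb, and its middle segment from 40.9 to 6.78 kb. The anterior segments of HoxA, HoxB and HoxC had no peak in either list. HoxD alone kept called bases at both ends, with 11.5 of 32.3 kb in the posterior segment, 0 of 32.3 kb in the middle and 13.1 of 32.3 kb in the anterior segment. Of the 15 2KO peaks in clusters and flanks, 14 lay wholly under control peaks and the other to 99.9%, and 8 of them met a cluster.

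**Figure D4:**
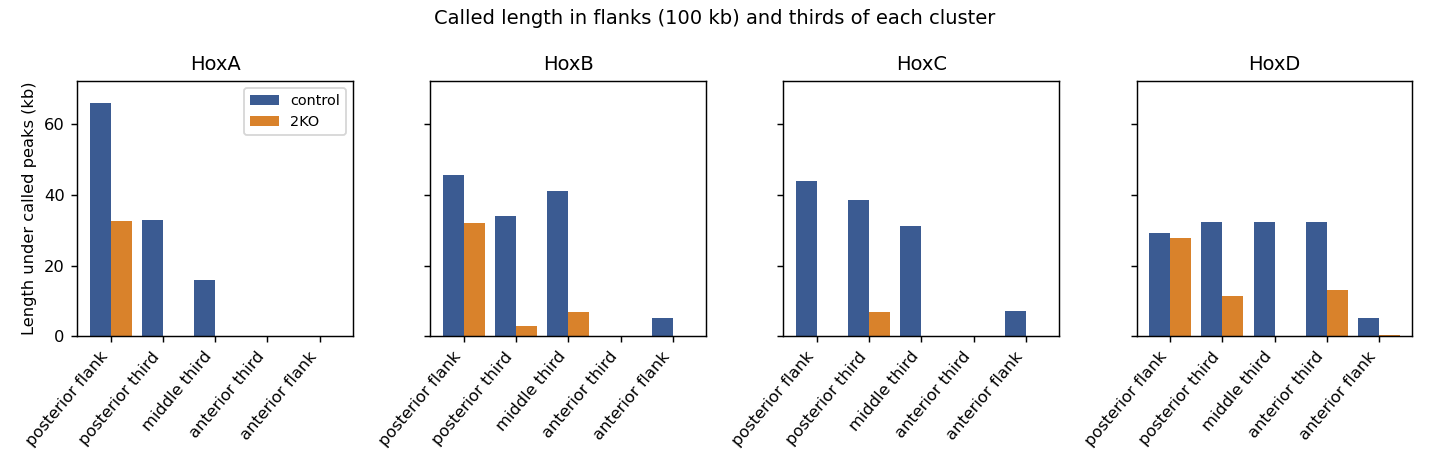
Length under called peaks, in kb, in the posterior flank (100 kb), the posterior, middle and anterior segments of equal length, and the anterior flank (100 kb) of each cluster, for the control (blue) and 2KO (orange) lists. The 2KO bars reach 27.7 to 32.5 kb in the posterior flanks of HoxA, HoxB and HoxD, are absent from that of HoxC, and within clusters stay at or below 13.1 kb.

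HoxD was the cluster with the most 2KO peaks. Its single control peak (chromosome 2, 74639113 to 74770435) covered all 9 Hox genes and Evx2, and 6 2KO peaks lay inside it. Hoxd12 (74675013 to 74677705) lay wholly under a 2KO peak of 4.54 kb (74673446 to 74677983). Hoxd10 (74684273 to 74695106) was covered to 63.9% by a peak of 6.92 kb (74686900 to 74693821), which also took 1.57% of Hoxd11. This peak lay wholly inside Hoxd10 and over its start site, and it met Hoxd11 only where the annotated bodies overlap. These genes act in limb patterning. Hoxd1 (74762980 to 74765142), at the other end, lay wholly under a peak of 5.41 kb (74760038 to 74765447). Hoxd3 (74711993 to 74748271) was covered to 21.9% by peaks of 4.79 and 3.16 kb toward its 3′ end. Between the peak at Hoxd10 and the nearer of these, 42.4 kb with Hoxd9, Hoxd8, Hoxd4 and the start of Hoxd3 held no 2KO peak. Hoxd13, Hoxd9, Hoxd8 and Hoxd4 were each at 100% in control and 0% in 2KO cells.

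Start sites were taken from the RefSeq promoter table, which listed 24 of the 40 members. In control cells 18 of the 24 starts lay under a peak (75%, compared with 7.49% of 17274 genes with an entry), and in 2KO cells 5 did (4.41% of all genes). The 5 were 27.8% of the 18, beside 51.5% of all starts under control peaks. They were the starts of Hoxd12, Hoxd10, Hoxd1, Evx1 and Evx2. Of the listed Hox starts outside HoxD, none lay under a 2KO peak. For HoxB only Hoxb8, Hoxb4 and Hoxb1 were listed, of which Hoxb8 alone was under a control peak, and for HoxC only Hoxc4, which was under no control peak, so the posterior starts of HoxB and HoxC were not examined. The 250 bases before the start are shown for Hoxd12, Hoxd10 and Hoxd1, whose starts were under peaks of both lists, and for Hoxd13, Hoxd9 and Hoxd8, whose starts were under the control peak alone. All are on the plus strand of chromosome 2 (RefSeq, GRCm38.p6), written 5′ to 3′ with each CpG in capitals.
Hoxd12, both lists, chr2:74674763-74675012: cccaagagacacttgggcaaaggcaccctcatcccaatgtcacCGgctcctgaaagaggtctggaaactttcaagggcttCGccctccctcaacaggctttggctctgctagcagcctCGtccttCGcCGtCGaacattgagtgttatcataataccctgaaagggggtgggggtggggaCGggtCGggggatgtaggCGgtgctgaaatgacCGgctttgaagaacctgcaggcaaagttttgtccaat
Hoxd10, both lists, chr2:74691641-74691890: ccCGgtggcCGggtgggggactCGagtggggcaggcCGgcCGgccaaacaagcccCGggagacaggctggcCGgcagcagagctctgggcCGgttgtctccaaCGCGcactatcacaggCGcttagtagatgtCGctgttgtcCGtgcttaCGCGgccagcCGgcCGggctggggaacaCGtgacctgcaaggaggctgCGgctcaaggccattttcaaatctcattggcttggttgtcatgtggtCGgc
Hoxd1, both lists, chr2:74762730-74762979: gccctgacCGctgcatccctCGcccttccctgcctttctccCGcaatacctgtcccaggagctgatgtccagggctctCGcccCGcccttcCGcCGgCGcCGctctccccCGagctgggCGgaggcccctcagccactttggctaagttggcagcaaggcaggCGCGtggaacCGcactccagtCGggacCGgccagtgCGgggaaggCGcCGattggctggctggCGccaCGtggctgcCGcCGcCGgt
Hoxd13, control only, chr2:74667975-74668224: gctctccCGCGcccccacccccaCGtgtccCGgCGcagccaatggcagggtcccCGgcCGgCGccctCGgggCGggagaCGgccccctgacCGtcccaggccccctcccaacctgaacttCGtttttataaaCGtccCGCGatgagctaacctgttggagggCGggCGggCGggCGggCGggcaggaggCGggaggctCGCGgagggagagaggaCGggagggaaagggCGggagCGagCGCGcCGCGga
Hoxd9, control only, chr2:74697513-74697762: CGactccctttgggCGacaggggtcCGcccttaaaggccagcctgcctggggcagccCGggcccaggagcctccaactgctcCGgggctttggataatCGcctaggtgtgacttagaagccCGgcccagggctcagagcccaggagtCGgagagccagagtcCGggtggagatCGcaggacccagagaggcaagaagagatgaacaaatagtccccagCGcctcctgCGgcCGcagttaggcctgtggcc
Hoxd8, control only, chr2:74704365-74704614: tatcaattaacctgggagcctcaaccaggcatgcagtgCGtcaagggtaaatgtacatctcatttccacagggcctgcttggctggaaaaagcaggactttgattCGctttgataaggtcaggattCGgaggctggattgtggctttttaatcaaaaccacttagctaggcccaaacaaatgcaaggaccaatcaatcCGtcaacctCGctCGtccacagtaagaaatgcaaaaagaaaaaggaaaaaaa

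CpG content, a feature of sequences that Polycomb complexes occupy in mammals, overlapped between these groups of promoters. The sequences of Hoxd12, Hoxd10 and Hoxd1 held 10, 20 and 24 CpGs, and those of Hoxd13, Hoxd9 and Hoxd8 held 31, 13 and 6. The group with 2KO peaks lay inside the range of the other. Over the 24 members with an entry, the 5 promoters under peaks of both lists had a median of 14 CpGs (10 to 24). The 15 entries under control peaks alone had 12 (2 to 35), and 6 entries under no peak had 11 (6 to 28). The median of all 17274 promoters was 10. The promoter of Hoxa13 was the richest of the listed members with 35, a number that 3.55% of all promoters reach, and that of Hoxd13 held 31, reached by 6.26%. Of all starts under control peaks, those also under 2KO peaks had a median of 12 CpGs (n = 667) and those under control peaks alone 17 (n = 627).

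In HoxA, control marking covered the posterior genes and ended between Hoxa7 and Hoxa6. Hoxa7, Hoxa9, Hoxa10, Hoxa11 and Hoxa13 were covered to 100%, and 2.80% of Hoxa3, whose long gene body reaches back past Hoxa6, was covered at its start. Hoxa2, Hoxa4, Hoxa5 and Hoxa6 were at 0%, and the start of Hoxa6 lay 3163 bp from the nearest control peak. In 2KO cells all 10 genes were at 0%. The distance from the outer end of the gene to the nearest 2KO peak was 423 bp for Hoxa13, 15493 bp for Hoxa11, 20449 bp for Hoxa10 and 33933 bp for Hoxa9. Hoxa10 and Hoxa11 act in the uterus and the limb.

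In HoxB, control peaks covered Hoxb13 and Hoxb9 to 100%, Hoxb8 to 91.9% and Hoxb6 to 90.7%. Hoxb7, which lies between the latter pair, was at 0%, as were Hoxb5, Hoxb4, Hoxb3, Hoxb2 and Hoxb1. In 2KO cells Hoxb9 alone held called bases, with 87.9% of its body, and its covered neighbours Hoxb8 and Hoxb6 were at 0%. The interval between Hoxb13 and Hoxb9 held the inner parts of the control peaks over these genes (48.7 and 39.3 kb) and a 2KO peak of 3.08 kb (96204132 to 96207210). Between those wide control peaks lay 4 narrow ones of 1.43 to 3.97 kb, none of which met a 2KO peak.

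In HoxC, which has no anterior genes, Hoxc13, Hoxc12, Hoxc11, Hoxc10 and Hoxc9 lay wholly under 1 control peak of 97.0 kb, and Hoxc8, Hoxc6, Hoxc5 and Hoxc4 were at 0%. A control peak of 2.04 kb (chromosome 15, 102995396 to 102997439) lay between Hoxc8 and Hoxc6. In 2KO cells all 9 genes were at 0%. The single 2KO peak lay between Hoxc12 and Hoxc11 and covered 28.2% of Hotair, a long noncoding RNA gene that lies there and was wholly under the control peak.

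Evx1 and Evx2, which take part in limb and spinal cord development, lay under peaks of both lists. Evx2 (chromosome 2, 74652989 to 74661520, minus strand) was covered to 100% in both lists, and Evx1 (chromosome 6, 52313498 to 52318389, plus strand) to 100% in control and 54.8% in 2KO cells. Within 10 kb of the genes, 2KO peaks covered 86.1% of the Evx2 window and 62.7% of that of Evx1, while the highest value of a Hox gene was 59.3% at Hoxd13, a window that extends toward Evx2. Hottip, a noncoding RNA gene between Hoxa13 and Evx1, was likewise at 100% in both lists.

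Of 6 microRNA genes within the clusters, 4 lay under control peaks and 0 under 2KO peaks. The 4 lay inside wide control peaks that also cover Hox genes (131.3, 105.3, 97.0 and 39.3 kb). The count thus repeats those peaks, and the share over all microRNA genes was not computed. With the 10 kb windows, Mir196a-1 was also marked in the 2KO list. The mature 5p sequences (RefSeq, GRCm38.p6) are shown to group the genes by seed, bases 2 to 8, in capitals. MicroRNAs of the miR-196 family are known to repress Hoxb8.
mmu-miR-10a-5p: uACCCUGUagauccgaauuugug
mmu-miR-10b-5p: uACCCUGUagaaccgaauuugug
mmu-miR-196a-5p: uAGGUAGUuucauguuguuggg
mmu-miR-196b-5p: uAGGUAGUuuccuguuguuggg

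The genes of the miR-196 seed, Mir196b near Hoxa9, Mir196a-1 in HoxB and Mir196a-2 in HoxC, were all under control peaks. The nearest 2KO peaks to their 5p sequences were 31153, 6757 and 19700 bp away. The genes of the miR-10 seed differed by cluster, since Mir10b in HoxD was under the control peak and Mir10a, near Hoxb4, was 16427 bp from one. Mir615, in HoxC, was under no peak.

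Related genes outside the clusters were examined with the same 10 kb windows. Genome-wide these windows marked 14.9% of genes in control and 11.2% in 2KO cells. Of all control-marked genes, 59.8% were marked in 2KO cells too. The 6 ParaHox and caudal genes, which encode homeodomain factors related to those of the Hox clusters, were all marked in both lists. In their windows the called length was 20.7 kb (control) and 20.02 kb (2KO) for Gsx1, 22.3 and 19.2 kb for Gsx2, 24.5 and 24.6 kb for Pdx1, and 26.4 and 24.0 kb for Cdx2. The bodies of these 4 genes were covered to 100% in both lists. Gsx1, Pdx1 and Cdx2 lie near one another on chromosome 5 and need not be independent. Cdx1 had 12.8 and 5.86 kb in its window, with 18.1% and 16.0% of its body covered, and Cdx4 had 5.16 and 5.21 kb, with 31.8% and 39.6% of its body covered. Of 9 genes for the Pbx, Meis and Pknox cofactors of Hox proteins, 4 were marked in control and 0 in 2KO cells. Meis1 had 23.1 kb under control peaks in its window, Meis2 8.11 kb, Pbx4 4.96 kb and Pknox2 4.38 kb. Little of these gene bodies lay under control peaks, with 10.7% for Meis1, 1.71% for Pknox2 and 0% for Meis2 and Pbx4. Of 9 retinoid genes, whose products control a signal that acts on Hox genes in the embryo, 5 were marked in control and 4 of these in both lists. Cyp26a1, which encodes a retinoic acid hydroxylase, had 16.1 and 15.9 kb, and Aldh1a2, which encodes an enzyme of retinoic acid synthesis, 23.5 and 20.6 kb. Cyp26c1 lies beside Cyp26a1 under the same peaks (23.8 kb in control, 22.3 kb in 2KO), so this pair is not independent. Aldh1a3 was marked in the control list alone, with 5.08 kb. Among 16 genes outside but near the clusters, 6 were marked in control and 3 of these in 2KO cells, namely Skap1, Ttll6 and Calcoco2 beside HoxB. The Ttll6 window takes in part of the control peak of Hoxb13. All listed neighbours of HoxC and HoxD were marked in neither list.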

How the data were processed

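H3K27me3 was mapped by chromatin immunoprecipitation and sequencing. Per the submitters' processing notes, Bowtie2 2.3.3.1, SAMtools 1.9 and build mm10 were used. The authors deposited 1 peak list per genotype holding chromosome, start and end, and no peak height or other value. How peaks were called, at what threshold, with or without input and on pooled or single replicates is not given in the sources used here. Fewer reads or a stricter setting would shorten a list. Input libraries were listed for Control and Eed cKO, and none for Ring1a/b 2KO. The input libraries and the Eed cKO libraries were not analysed here. Peak starts were taken to count from 0 and 1 was added for print.

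Python 3.11.15, pandas 2.3.3 and numpy 2.4.6 gave the overlaps and covered bases, and matplotlib 3.10.9 the figures. As a test on simulated data, a list was made from the 3631 control peaks with 2000 kept in part, and all calls and all base counts came out right. Gene positions came from a RefSeq table of GRCm38.p6, and strands and start sites from its promoter table, using for each gene the entry listed first. All 49 genes of the other lists were found, and the homeodomain comparison planned for proteins was not run. Every member is named; other genes come from these lists, up to 4 per list and class at the widest peaks, and those beyond this serve to place peaks. The members and lists were chosen with earlier results of these data known. Alternatives varied the window, the overlap, the peaks used, the class limits and the flank length.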

Additional observations from a re-analysis of the deposited data

How the results depend on the processing

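No paired analysis was possible because the lists hold no values per replicate, so leaving out single replicates could not be run either. Of 110 recomputed values under 13 settings, 95 stayed within 1.5 times the reported value. These values are not independent, so their share is no measure of robustness. The number marked in both lists equalled that marked in 2KO under each setting. Posterior genes marked in control stayed at 16, and taking equal numbers of the widest peaks left the 2KO values unchanged. With a window of 0, 8 members were marked in the 2KO list and 8 in both (17 with 10 kb), and 5 central genes were marked in control, 0 central genes in 2KO and 4 posterior genes in 2KO (11, 3 and 10 with 10 kb). With 1 kb, 7 central genes were marked in control and 1 in 2KO, with 5 kb 1 in 2KO, and with 20 kb 5 in 2KO. A window of 20 kb raised the median share of the window under 2KO peaks from 0 to 11.2%. Requiring at least 50% of the body under peaks left 6 members marked in 2KO and 6 in both. With peaks of at least 5 kb only, 1 anterior gene was marked in 2KO and the called length inside clusters was 25.6 kb in 2KO. With flanks of 50 kb, the anterior flanks had 9.19 kb in control. Wider windows take in peaks beside the gene by construction; other causes were not tested. The lists hold no depth, so no limit of detection can be given.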
